A study of Mus musculus with 8 samples.

Results

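The Nr4a, Egr and Ier immediate early genes were followed in the distal trachea and carina of old and young mice. The set holds 10 genes, namely the nuclear receptor genes Nr4a1, Nr4a2 and Nr4a3, the zinc finger factor genes Egr1, Egr2 and Egr3, the immediate early response genes Ier2, Ier3 and Ier5, and the phosphatase gene Dusp1. They were chosen by name, and every probe set whose only annotated gene was one of the 10 was used, which gave 21 probe sets of the 45037 on the array and 10 genes of 18193. No probe set of these genes was shared with a second gene. RNA came from 4 old mice (14 months of age, numbered 1, 2, 5 and 6) and 4 young mice (2 months of age, numbered 3, 4, 7 and 8), all female C57Bl/6 with no transgene, knockout or treatment named. Each mouse was hybridized to its own Affymetrix Mouse Genome 430 2.0 array, on which a probe set is a group of short probes for 1 transcript, read as a signal in arbitrary linear units. Probe sets differ in how strongly they bind, so signals were compared between mice and never between genes.

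Immediate early genes are transcribed within minutes of a stimulus, such as a growth factor, mechanical stretch, an antigen signal or tissue injury, without the need for new protein synthesis. Their transcripts are short lived, so a level reflects the recent past of the cells, and handling of a tissue can itself induce them. The NR4A proteins are orphan nuclear receptors that bind DNA without a known natural ligand, the EGR proteins are zinc finger factors that bind GC-rich sites, and both families are induced in lymphocytes, macrophages, smooth muscle and epithelia. Ier2, Ier3 and Ier5 encode small proteins unrelated to these factors, and Dusp1 encodes a phosphatase that switches off the MAP kinases p38 and JNK. The tissue was a mixture, and in such bulk RNA fewer cells of a type and less RNA per cell cannot be told apart.

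Over the 10 genes, each read at its brightest probe set, 2 rose in the old mice at the 0.05 threshold (limma with Benjamini-Hochberg adjustment over 18193 genes), against 0.368% of all genes, and none fell. The 2 were Nr4a1, with a log2 difference (old minus young) of 2.12, and Ier5, with 0.62. At a nominal p (before adjustment) below 0.05 there were 5 genes higher with age, adding Nr4a3, Egr1 and Nr4a2, against 7.31% of all genes, and 0 lower, against 7.28% of all genes. The median log2 difference of the 10 genes was 0.61 and that of all genes was -0.0047. Nr4a1, Nr4a3 and Egr3 are among the genes that the study itself selected from these same arrays, so their direction is not independent evidence. The call of Nr4a1 and Ier5 depended on what the adjustment ran over: when it ran over all 45037 probe sets, the adjusted p of Nr4a1 was 0.0728, that of Ier5 was 0.101, and 0 of the 21 probe sets passed, against 0.0533% of all probe sets higher in old mice. The same 21 probe sets held 9 at a nominal p below 0.05, all higher in old mice, against 5.76% of all probe sets, and 0 passed after adjustment with the ordinary test without moderation.

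**Figure D1:**
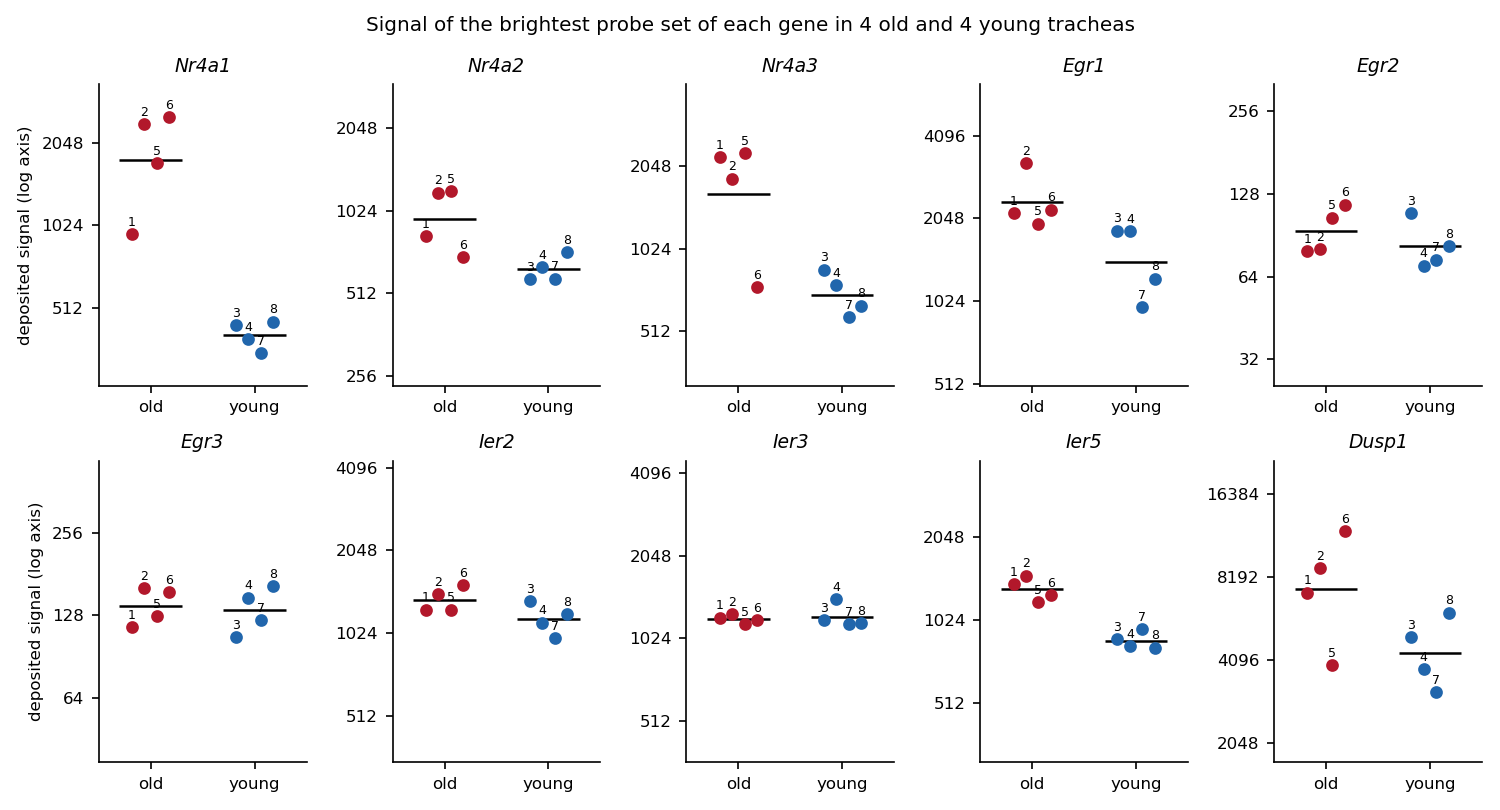
Signal of the brightest probe set of each gene on a log axis, with old mice on the left and young mice on the right of each panel; points are single mice with their numbers and lines are geometric means of 4 mice. The 4 old mice lay above all 4 young mice for Nr4a1, Egr1 and Ier5, while the ages overlapped for the other genes.

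The 3 NR4A genes gave 60.6% of the summed log2 difference of the set, with 32.6% from Nr4a1, 18.7% from Nr4a3 and 9.33% from Nr4a2. Dusp1 (11.8%), Egr1 (11.1%) and Ier5 (9.55%) each gave more than Nr4a2. These shares use the brightest probe sets, with Egr3 at 0.053. The NR4A share would be smaller with Egr3 at the 0.84 of its other probe set. The promoters of the 3 NR4A genes are shown first, because each holds 4 copies of 1 short element. The letters are the 250 bases before the annotated start, read along the gene, from RefSeq on GRCm38.p6, at chr15:101266596-101266845 on the plus strand for Nr4a1, chr2:57124004-57124253 on the minus strand for Nr4a2, and chr4:48045055-48045304 on the plus strand for Nr4a3. Dusp1, at chr17:26508473-26508722 on the minus strand, follows for comparison. Capitals mark the core of the cyclic AMP response element, TGACG on either strand.
Nr4a1: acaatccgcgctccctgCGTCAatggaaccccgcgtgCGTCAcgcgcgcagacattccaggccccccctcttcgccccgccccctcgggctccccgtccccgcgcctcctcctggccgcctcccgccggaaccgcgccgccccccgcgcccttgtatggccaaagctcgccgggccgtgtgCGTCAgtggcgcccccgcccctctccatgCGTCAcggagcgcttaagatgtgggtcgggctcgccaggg
Nr4a2: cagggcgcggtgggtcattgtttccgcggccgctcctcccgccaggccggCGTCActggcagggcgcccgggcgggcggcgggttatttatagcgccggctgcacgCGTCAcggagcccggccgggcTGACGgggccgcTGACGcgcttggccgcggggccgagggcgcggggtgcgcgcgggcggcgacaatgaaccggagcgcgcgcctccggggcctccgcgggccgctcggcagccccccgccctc
Nr4a3: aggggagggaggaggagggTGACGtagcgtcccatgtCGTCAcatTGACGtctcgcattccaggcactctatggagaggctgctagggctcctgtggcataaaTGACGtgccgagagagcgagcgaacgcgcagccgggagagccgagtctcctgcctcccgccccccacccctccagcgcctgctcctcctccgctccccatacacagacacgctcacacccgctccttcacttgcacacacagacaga
Dusp1: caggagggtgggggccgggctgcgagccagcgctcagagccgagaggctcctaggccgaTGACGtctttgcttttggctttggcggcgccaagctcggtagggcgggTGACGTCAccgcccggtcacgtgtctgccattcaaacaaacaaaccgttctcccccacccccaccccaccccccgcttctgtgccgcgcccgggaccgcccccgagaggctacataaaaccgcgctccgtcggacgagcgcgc
Each NR4A promoter held 4 core sites. In Nr4a1 they began at -233, -213, -69 and -40 from the start, in Nr4a2 at -200, -144, -123 and -111, and in Nr4a3 at -231, -213, -205 and -147. Of all 32851 promoters in the table, 17.8% held at least 1 core site, counting overlapping matches once, and 16, or 0.0487%, held at least 4, which were the promoters of 16 genes. Every core site of Nr4a1 lay inside the longer word TGCGTCA, of which this promoter had 4 copies, and it was the 1 promoter of 32851 with that many. Dusp1 had 2 core sites, the one at -143 being part of the full palindrome TGACGTCA, which 1.55% of all promoters held and none of the NR4A promoters did. The core site and the longer word were chosen after these sequences had been read, and a match describes letters, not a bound site.

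Nr4a1 encodes NUR77, a nuclear receptor induced by antigen receptor signaling in lymphocytes and by inflammatory stimuli in macrophages. Its signal was 949, 2393, 1722 and 2533 in old mice 1, 2, 5 and 6, against 443, 394, 351 and 457 in young mice 3, 4, 7 and 8. The lowest old mouse was above the highest young mouse, and the old mice were more spread than the young, with an SD of 0.65 on the log2 scale in old and 0.17 in young mice. The means were 1899 ± 726 in old and 411 ± 48.2 in young mice (SD, n = 4 each), a log2 difference of 2.12 (standard error, SE, 0.30, 95% interval 1.41 to 2.82) or 4.34-fold. The adjusted p was 0.0396 in the limma fit over genes, and Nr4a1 ranked 69 of 18193 genes by p. This call was lost when any mouse other than old mouse 1 was left out, with adjusted p between 0.0755 and 0.115 in those 7 fits, while the log2 difference stayed between 1.95 and 2.42. It was 1.85 between the mice numbered 1 to 4 and 2.38 between those numbered 5 to 8. With these number ranges as a block the adjusted p of Nr4a1 was 0.0641, and by the ordinary test without moderation it was 0.0739, so both ended the call.

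Nr4a3 encodes NOR1, the NR4A receptor known from smooth muscle and myeloid cells. At its brightest probe set, 1438796_at, the signal was 2205, 1838, 2279 and 741 in old mice 1, 2, 5 and 6, against 857, 751, 575 and 634 in young mice 3, 4, 7 and 8. Old mice 1, 2 and 5 were above every young mouse, and old mouse 6, which had the highest Nr4a1 signal of all, lay within the young range. The log2 difference was 1.22 (SE 0.36), with an adjusted p of 0.187 over genes by limma. Without old mouse 6 it was 1.59 and passed, with an adjusted p of 0.0311 in that fit. The other probe sets of Nr4a3 were among the dimmest 10.01% and 2.40% of the array: 1421080_at gave 20.2, 14.5, 29.5 and 16.9 in old mice, against 20.9, 15.2, 16.8 and 22.2 in young mice. The ages overlapped there, with a log2 difference of 0.076 (SE 0.24). 1421079_at varied more than 10-fold among the old mice, between 2.68 and 32.8, against 2.37 to 11.4 in young mice, and its log2 difference was 1.18 with an SE of 0.83.

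Nr4a2 encodes NURR1, the family member known for its part in dopamine neurons, and it was read by 6 probe sets. The brightest, 1455034_at, gave 828, 1189, 1206 and 693 in old mice 1, 2, 5 and 6, against 576, 636, 579 and 722 in young mice 3, 4, 7 and 8. As for Nr4a3, old mouse 6 stood among the young mice and the other 3 old mice lay above them. The log2 difference was 0.61 (SE 0.20, adjusted p = 0.221 by limma over genes). All 6 probe sets had positive log2 differences, between 0.15 and 0.62, and 3 had a nominal p below 0.05. The largest came from the dim 1433423_at (mean signal 47.4, SE 0.32) and was as low as 0.088 under other processing settings. The smallest, at 1433422_at, was 0.57 between the mice numbered 1 to 4 and -0.27 between those numbered 5 to 8. In 2 of the 6, namely 1450750_a_at and 1447863_s_at, the ages did not overlap. 1450750_a_at gave 404, 477, 549 and 412 in old mice, against 367, 298, 328 and 344 in young mice, a log2 difference of 0.45 (SE 0.13). 1447863_s_at ran between 625 and 1086 in old mice and between 567 and 604 in young mice, so the young mice were nearly level and the old mice were not.

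**Figure D2:**
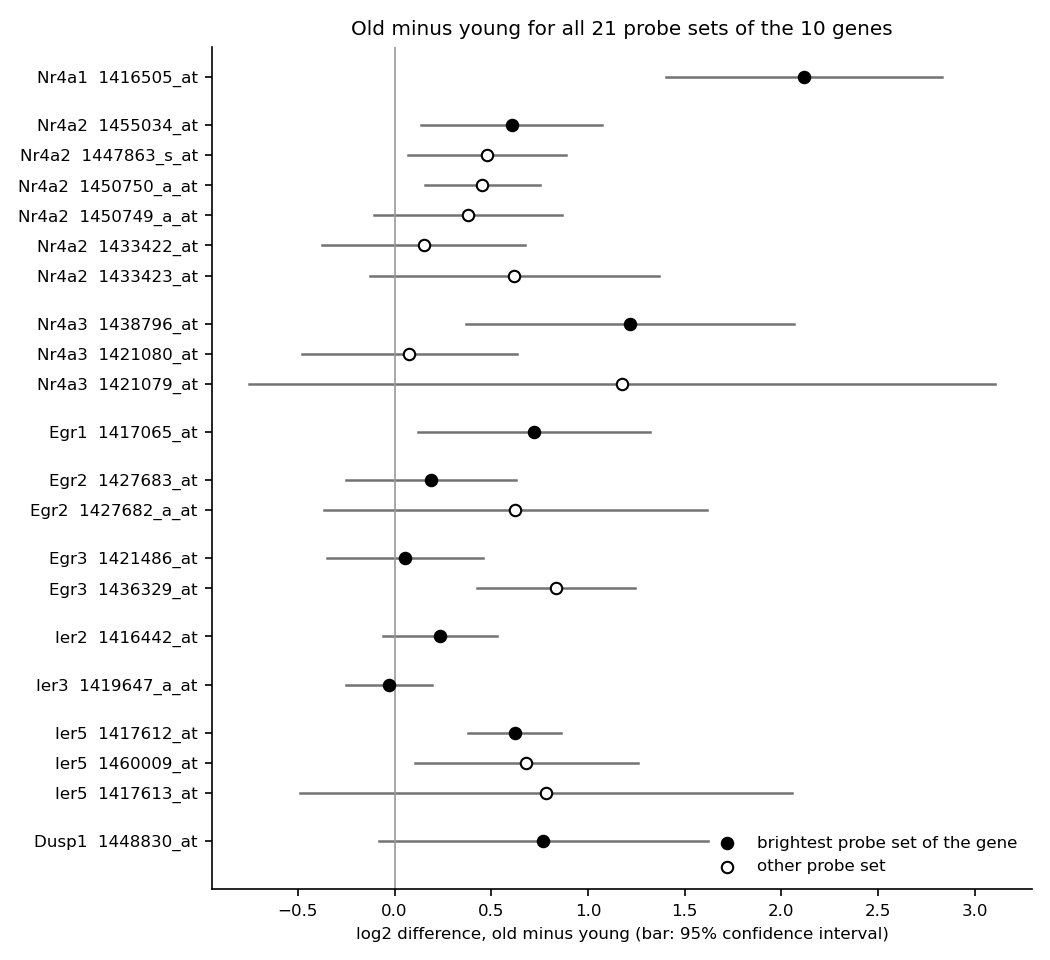
Log2 difference, old minus young, of each of the 21 probe sets by gene, with 95% confidence intervals from the limma fit over all probe sets; filled points are the brightest probe set of a gene. Of the 21 estimates 20 were positive, against 48.9% of all probe sets, the exception being Ier3 at -0.030. The 21 probe sets read 10 genes, so they are not separate results. The 2 probe sets of Egr3 gave 0.053 and 0.84.

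Egr1 encodes a zinc finger factor induced through serum response factor in most cell types. Its signal was 2144, 3250.3, 1959 and 2207 in old mice 1, 2, 5 and 6, against 1849, 1842, 975 and 1235 in young mice 3, 4, 7 and 8. The ages did not overlap, but the gap was narrow, with old mouse 5 just above young mouse 3. The log2 difference was 0.72 (SE 0.25), with a nominal p of 0.0233 and an adjusted p of 0.258 by limma over genes. Without old mouse 2, young mouse 7 or young mouse 8 the estimate was 0.56, 0.54 or 0.65, and its nominal p was no longer under 0.05. Egr1 was 1 of 3 genes of the set without overlap between ages and higher in old mice, with Nr4a1 and Ier5, against 5.02% of all genes. Over the 21 probe sets there were 6 such cases, against 4.05% of all probe sets.

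Egr2 encodes KROX20, known from hindbrain, Schwann cells and T cells. Its brighter probe set, 1427683_at, gave 79.3, 80.7, 105 and 117 in old mice, against 109, 70.1, 73.7 and 82.6 in young mice. The ages overlapped, the log2 difference was 0.19 (SE 0.18), and its 95% interval ran between -0.24 and 0.62. The second probe set, 1427682_a_at, gave 0.62 with an SE of 0.43, young mouse 8 being far below the others at 16.9. Without that mouse the log2 difference of Egr2 1427682_a_at was 0.20.

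Egr3 encodes a factor that acts with EGR2 downstream of antigen receptors, and its probe sets did not give the same picture. The brighter one, 1421486_at, gave 116, 161, 127 and 155 in old mice 1, 2, 5 and 6, against 107, 149, 123 and 164 in young mice 3, 4, 7 and 8. The ages lay on top of each other and the mouse with the highest signal was young. Its log2 difference was 0.053 (95% interval -0.34 to 0.45 over genes, adjusted p = 0.922 by limma). The other probe set, 1436329_at, gave 146, 151, 132 and 173 in old mice, against 93.3, 102, 85.9 and 60.9 in young mice. The 4 old mice all exceeded the 4 young mice, and the log2 difference was 0.84 (SE 0.18, 95% interval 0.43 to 1.24). Its nominal p was 0.00164, and its adjusted p over all probe sets was 0.158 by limma.

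The disagreement itself was tested as the log2 ratio of 1436329_at over 1421486_at in each mouse. The ratio was 0.34, -0.097, 0.055 and 0.16 in old mice 1, 2, 5 and 6, against -0.19, -0.54, -0.52 and -1.43 in young mice 3, 4, 7 and 8. The ages did not overlap, and the 2 probe sets stood furthest apart in young mouse 8, which had the highest signal of all mice on one and the lowest on the other. The ratio differed between ages by 0.78 (SE 0.26, 95% interval 0.18 to 1.39). The exact two-sided permutation test over the 70 divisions of the mice gave p = 0.0286, the smallest that 4 against 4 allow, and 0.314 after Benjamini-Hochberg adjustment over the 11 such pairs within the set. In the limma fit over all 16752 pairs of probe sets of 1 gene, the nominal p was 0.0178 and the adjusted p 0.594. Without young mouse 8 the difference was 0.53, and without any other mouse it was between 0.71 and 0.94. A nominal p below 0.05 was found for 7.33% of those 16752 pairs in either direction, and an adjusted p under 0.05 for 0.0119%.

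Other values bear on the 2 Egr3 probe sets. A difference of at least this size was seen in 7.84% of all pairs. It was also seen in 68 of 1443 pairs, or 4.71%, of like brightness to the Egr3 pair. In these, each member was within a factor of 2 of the matching Egr3 probe set in mean signal. Of these 1443 pairs 9.91% had a nominal p below 0.05. Both probe sets were on the dimmer side of the array, at 47.6% and 42.9% of the ranking by mean signal. Over all probe sets of that side the median SD between mice of 1 age was 0.49 on the log2 scale, against 0.16 for brighter probe sets. The 2 Egr3 probe sets spread less than that side's median. Their SDs were 0.23 in old and 0.28 in young mice for 1421486_at, and 0.16 and 0.33 for 1436329_at. The platform table gave 1421486_at a curated RefSeq transcript and named no transcript for 1436329_at, as also for the brightest probe set of Ier5. Probe positions were not available here, so the place of either Egr3 probe set along the gene was not known. What separated the 2 probe sets was not tested. Among the other 10 pairs within the set, that of Nr4a3 1421080_at with 1438796_at had the smallest p, with a difference of -1.14 (SE 0.35, exact two-sided permutation p = 0.0571, and 0.314 adjusted over the 11 pairs), one of its probe sets being near the bottom of the signal range. The pairs of Nr4a2, Egr2 and Ier5 gave exact permutation p between 0.143 and 0.943, so no disagreement was detected in them with 4 mice an age.

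**Figure D3:**
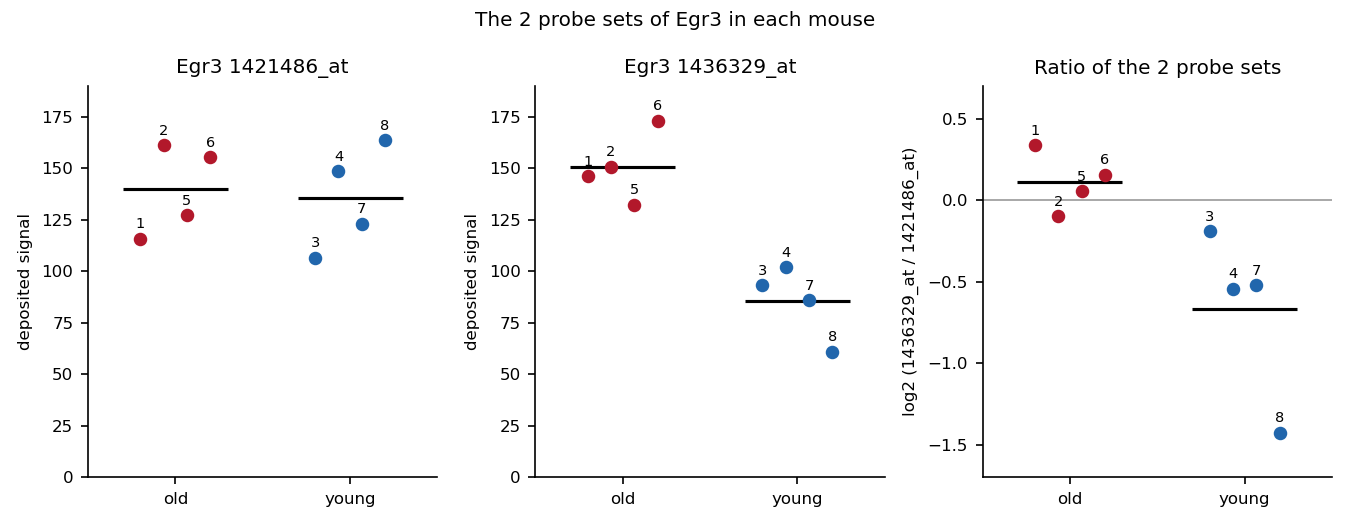
Signal of the 2 Egr3 probe sets and their log2 ratio in each mouse, old mice left and young mice right; numbers are mouse numbers and lines are means of 4 mice. 1421486_at overlapped between ages, whereas 1436329_at lay between 132 and 173 in old and between 60.9 and 102 in young mice.

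Ier5 encodes a nuclear protein that works with heat shock factor HSF1 and the phosphatase PP2A. At its brightest probe set, 1417612_at, the signal was 1384, 1487, 1191 and 1265 in old mice 1, 2, 5 and 6, against 874, 825, 949 and 813 in young mice 3, 4, 7 and 8. The ages were well apart and each was narrow, with an SD of 0.14 on the log2 scale in old and 0.10 in young mice. The means were 1332 ± 131 in old and 865 ± 61.8 in young mice (SD, n = 4 each), and the log2 difference was 0.62 (SE 0.094, 95% interval 0.40 to 0.84, adjusted p = 0.0447 by limma over genes). Ier5 thus had a smaller change than Nr4a3 with a smaller p. Leaving out any 1 of the 8 mice ended the call, with adjusted p between 0.0805 and 0.127. The adjusted p of Ier5 was 0.0646 with mouse numbers 1 to 4 and 5 to 8 as a block, 0.0588 by the ordinary test, 0.0661 with array medians centered and 0.297 with its probe sets averaged, each of which ended the call. The other probe sets pointed the same way with more spread. 1460009_at gave 395, 376, 394 and 252 in old mice, against 332, 186, 168 and 215 in young mice, with a log2 difference of 0.68 (SE 0.25). 1417613_at gave 109, 109, 89.4 and 92.1 in old mice, against 144, 96.5, 28.3 and 28.7 in young mice, where young mouse 3 was the highest of all.

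Ier2, whose product is a nuclear regulator induced by growth factors, gave 1244.5, 1418, 1247 and 1529.8 in old mice, against 1338, 1116, 980.1 and 1198 in young mice. The ages overlapped through young mouse 3, and the log2 difference was 0.24 (95% interval -0.042 to 0.51, adjusted p = 0.415 by limma). Ier3 encodes IEX-1, a stress-inducible protein that modulates cell survival. It gave 1219.5, 1252, 1153 and 1194 in old mice, against 1194, 1425, 1157 and 1162 in young mice. All mice but young mouse 4 were within a narrow band, and the log2 difference was -0.030 with a 95% interval of -0.23 to 0.17, so a change of the size of Ier5 lay outside its interval.

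Dusp1 gave 7189.7, 8850.1, 3918 and 12064 in old mice 1, 2, 5 and 6, against 4947, 3791, 3119 and 6086 in young mice 3, 4, 7 and 8. Old mice 1, 2 and 6 were above every young mouse and old mouse 5 was below 2 of them. The log2 difference was 0.77 (SE 0.36, 95% interval -0.074 to 1.61, adjusted p = 0.382 by limma over genes). It was 1.08 without old mouse 5 and 0.53 without old mouse 6. A rule of more than 2-fold with a nominal p below 0.05 took 2 of the 10 genes, Nr4a1 and Nr4a3, against 1.11% of all genes, and 2 of the 21 probe sets, the same brightest ones, against 1.19% of all probe sets.

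Which mice carried the difference was not the same for each gene. Relative to the mean of the young mice on the log2 scale, the mean of the 10 genes was 0.51, 0.84, 0.58 and 0.66 in old mice 1, 2, 5 and 6, against 0.11, 0.028, -0.21 and 0.070 in young mice 3, 4, 7 and 8. All 4 old mice were thus above all 4 young mice in the mean, but by different genes. Old mouse 6 had the highest signal of the 8 mice in 4 genes, Nr4a1, Egr2, Ier2 and Dusp1, and the lowest of the old mice in Nr4a2 and Nr4a3. Old mouse 5 had the highest Nr4a2 and Nr4a3 and the lowest Egr1, Ier3, Ier5 and Dusp1 of the old mice. Old mouse 2 was among the 2 highest mice in 8 of the 10 genes, and young mouse 7 was the lowest in 5. With the age means removed, Nr4a3 correlated with Nr4a2 at r = 0.61 and with Nr4a1 at r = -0.53 over the 8 mice, and Ier2 with Dusp1 at r = 0.77, all as descriptions over points that share arrays. Leaving out a gene moved the median of the set little, between 0.61 and 0.62, whereas the mean of 0.65 was 0.49 without Nr4a1.

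**Figure D4:**
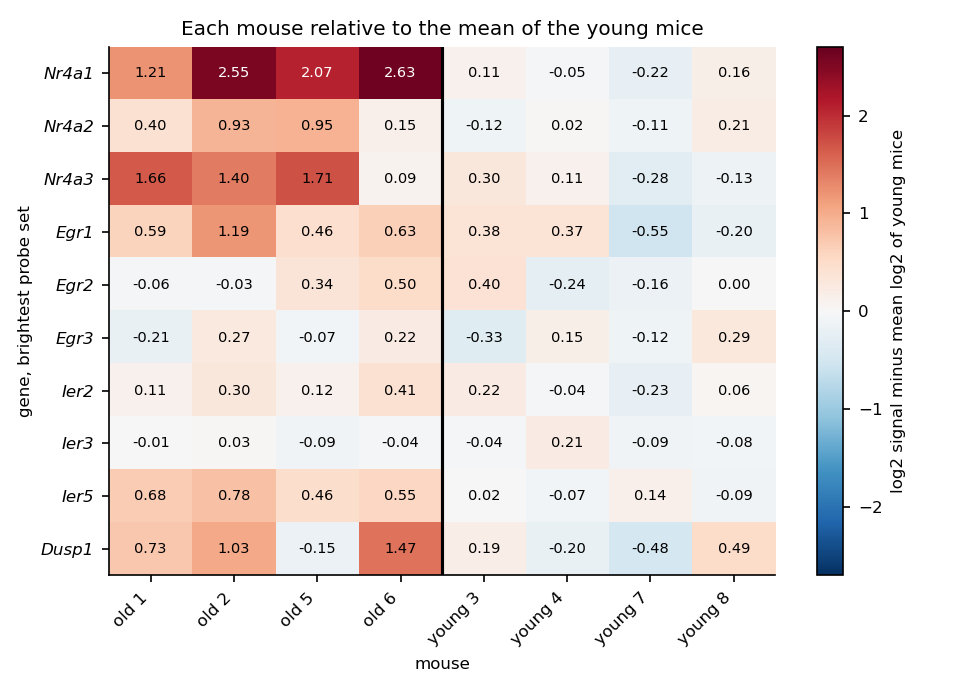
Log2 signal of each mouse minus the mean log2 signal of the 4 young mice, for the brightest probe set of each gene, old mice in the left columns and young mice in the right columns. Nr4a1 stood at 1.21 or more in every old mouse, whereas Nr4a3 was at 0.091 in old mouse 6 and at 1.40 or more in the other old mice.

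The same promoters and those of the other genes were searched for the sites of the factors that act on this gene class, in the same 250 bases and on both strands. RefSeq promoters were found for 7 of the 10 genes, and not for Egr1, Egr3 and Ier2. The CArG box, the site of serum response factor, was found upstream of 4 of the 5 annotated starts of Egr2, 3 of whose windows overlap, and in 1.47% of all promoters. The EGR site GCGNGGGCG was found at -60 in Nr4a1 and at -74 in Nr4a2, and in 4.70% of all promoters. TATAAA was found in Nr4a2 and in 12.4% of all promoters. The NR4A site AAAGGTCA and the AP-1 site TGANTCA were found in none of the 7 genes, and in 1.34% and 6.75% of all promoters, which says only that these letters were not in this window. Ier3 and Ier5 held no TGACG in the window.

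Related lists were read in the same limma fit over genes, where 7.31% of all genes were higher in old mice and 7.28% lower at a nominal p below 0.05. Of 20 AP-1 and other immediate early transcription factors, 0 passed an adjusted p under 0.05, also with the ordinary test, 11 were higher in old mice at a nominal p below 0.05 and 0 lower, and the median log2 difference was 0.31. Atf3, a stress-induced bZIP factor also selected by the study on these arrays, had the smallest p, with 673 ± 292 in old and 159 ± 33.3 in young mice (SD, n = 4 each) and a log2 difference of 1.99 (SE 0.34, adjusted p = 0.0609). Myc, a growth regulator, was at 0.67 (adjusted p = 0.101), the Krüppel-like factor gene Klf6 at 0.30 (adjusted p = 0.151) and Jun, a subunit of AP-1, at 0.91 (adjusted p = 0.163). Of 28 other immediate early genes, 0 passed, also with the ordinary test, 8 were higher and 2 lower at a nominal p below 0.05 (7 and 2 by the ordinary test), and the median was 0.25. The matricellular gene Ccn1 was at 2.03 (adjusted p = 0.067), the prostaglandin synthase gene Ptgs2 at 1.37 (adjusted p = 0.0819), the cytokine inhibitor Socs3 at 0.77 (adjusted p = 0.148), and Rgs2, a regulator of G-protein signaling on the study's list, at -0.87 (adjusted p = 0.0661).

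Dusp1 belongs to a family of feedback inhibitors of MAP kinase signaling, which was read as a list of its own. Of 14 dual-specificity phosphatase and Sprouty genes, 0 passed after adjustment, also with the ordinary test, 3 were higher at a nominal p below 0.05 and 0 lower, and the median was 0.11. Dusp6, which acts on ERK, was at 0.43 (adjusted p = 0.158), Dusp5, a nuclear ERK phosphatase, at 1.39 (adjusted p = 0.248), Spry2 at 0.21 (adjusted p = 0.333) and Dusp2 at 0.28 (adjusted p = 0.361). Dusp5 was dim and overlapped between ages, with signals of 32.3 to 98.5 in old and 10.9 to 34.6 in young mice. Its log2 difference was as low as 0.17 under other processing settings. Of 5 partners and corepressors, none was past a nominal p of 0.05 by either test. The median of these 5 was -0.097, the retinoid X receptor genes Rxrg, Rxra and Rxrb being at -0.19, -0.097 and -0.15 and the EGR corepressor gene Nab1 at 0.055. Of 11 heat shock genes, which answer to HSF1, 2 rose at an adjusted p under 0.05 and 10 were higher at a nominal p below 0.05, with a median of 0.67. Besides cytosolic genes the list holds the mitochondrial chaperonin genes Hspd1, at 0.25, and Hspe1, at 0.20. By the ordinary test 0 of the 11 passed after adjustment, at 0.0588 for Hspa1b and 0.0656 for Hspa1a, and 10 were again higher at a nominal p below 0.05. Hspa1b was at 1.56 (adjusted p = 0.0286) and Hspa1a at 1.85 (adjusted p = 0.0345), near-identical genes whose probes may cross-hybridize. Hspa8 was at 0.76 (adjusted p = 0.0557) and Hsph1 at 0.90 (adjusted p = 0.0846). Each of the calls of Hspa1b and Hspa1a was lost when any mouse other than old mouse 5 was left out, with adjusted p up to 0.0838 for the first and 0.112 for the second.

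**Figure D5:**
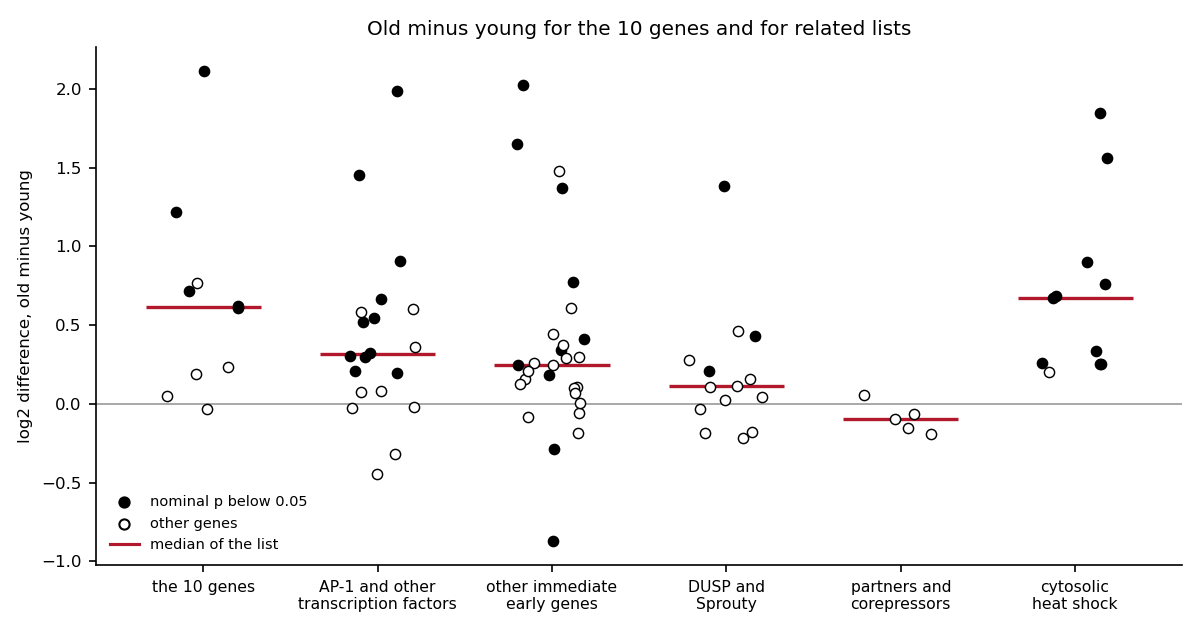
Log2 difference, old minus young, of the 10 genes and of 5 related lists, 1 point per gene at its brightest probe set; filled points had a nominal p below 0.05 and lines are medians. The medians were 0.61 for the 10 genes, 0.31 for AP-1 and other factors, 0.25 for other immediate early genes, 0.11 for phosphatases and Sprouty genes, -0.097 for partners and 0.67 for heat shock genes.

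Cell markers and RNA measures moved with age on the same arrays, and their part in the results above was not tested. The marker counts below stand against 7.31% of all genes higher and 7.28% lower at a nominal p below 0.05. Of all genes, 5.02% were higher in old mice without overlap between ages. Median signals were 155 ± 4.05 in old and 155 ± 4.24 in young mice (SD, n = 4 each), and all pairs of arrays correlated at r between 0.947 and 0.958. Airway epithelial markers were present, with a summed signal of 143581 to 167966 in old and 147456 to 163588 in young mice. Of these 14 markers 3 were higher in old mice at a nominal p below 0.05 and 0 lower, namely the keratin genes Krt8, Krt5 and Krt15, each without overlap between ages. Only 5 of the 14 had a positive log2 difference, and the median was -0.050. The keratin gene Krt18 was at -0.12 and the basal cell marker Trp63 at -0.048. The study's counts of stained Krt5+ cells, made in other and older mice, were lower with age. At a nominal p below 0.05, 7 of 9 B and plasma cell markers were higher in old mice (sums of 5026 to 16446 in old and 853 to 1457 in young mice), 6 of 10 T cell markers (1161 to 1757 in old and 877 to 1026 in young), 6 of 10 macrophage markers (18020 to 20816 in old and 15062 to 16273 in young) and 3 of 5 neutrophil markers (755 to 2048 in old and 323 to 564 in young). Such sums mostly follow the brightest genes of a list. Jchain alone gave 3735 to 14016 in old and 127 to 730 in young mice. Many of these immune markers were dim. Below the median of all genes in mean log2 signal were 10 of 10 T cell, 7 of 9 B and plasma cell, 5 of 5 neutrophil and 1 of 10 macrophage markers. The dimmest was Cd6 of T cells with a mean signal of 7.96, so not every marker is shown to be present. Fibroblast markers were lower in 3 of 6 genes, with sums of 60424 to 65324 in old and 76051 to 85061 in young mice. The lower ones were the collagen genes Col1a1, Col1a2 and Col3a1, which the study also selected from these arrays. The fibroblast markers that are not collagens, Dcn, Pdgfra and Lum, were at log2 differences of -0.067, -0.061 and 0.0067. Of the smooth muscle markers 4 of 8 were lower, with sums of 87411 to 99506 in old and 99337 to 113083 in young mice. Skeletal muscle markers were lower in 2 of 9 genes, with sums of 1710.2 to 2400.3 in old and 2600.0 to 3371 in young mice. The 3' to 5' ratio of the beta actin control probe sets, a measure of RNA integrity and labeling, was 1.13 to 1.30 in old and 1.31 to 1.46 in young mice (exact two-sided permutation p = 0.0286, the smallest possible). The same ratio for Gapdh was 0.704 to 0.746 in old and 0.667 to 0.794 in young mice (exact permutation p = 0.83). No time between death and lysis is given in the sources used here.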

How the data were processed

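Total RNA of 8 mice was processed with Ambion MessageAmp Premier and hybridized to Affymetrix Mouse Genome 430 2.0 arrays. The authors deposited 1 linear signal intensity per probe set and array. Their methods name Partek software with robust multichip analysis and a two-way ANOVA whose second factor is not named. The deposited intensity values share a trimmed mean on every array, so which step set their scale is not settled. Of 45101 probe sets 64 controls were left out. The platform annotation gave 34945 of the rest 1 gene symbol, 932 several and 9160 none. Log2 signals were fitted with age alone in limma 3.58.1 (R 4.3.3, lmFit and eBayes, two-sided), over all probe sets and over the brightest probe set of each gene, with Benjamini-Hochberg adjustment and a threshold of 0.05. The method was tested on simulated data. Array number limits precision, since each age has 4 mice. The 10 genes and all lists were chosen with earlier results of these data known. In each other list, up to 4 genes with the smallest p were named. Alternatives covered single mice left out, other variance models, scalings, floors of 32 and 64, brightness filters and probe set choices. Promoters came from RefSeq on GRCm38.p6.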

Additional observations from a re-analysis of the deposited data

Results flagged for a closer look

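Each group of 4 mice was checked, in each of the 21 probe sets, for a single mouse far from the other 3, and 2 of the 42 groups held one. Chance alone flags about 1 in 20 groups. For Ier3, young mouse 4 had a signal of 1425 (1425.29), against 1157 to 1194 in the other young mice, and without it the log2 difference (old minus young) was 0.041 in place of -0.030. For Ier5 at 1460009_at, old mouse 6 had a signal of 252 (251.64), against 376 to 395 in the other old mice, and the brightest probe set of Ier5 showed no such gap in that mouse. No other of the 42 groups passed this rule, though old mouse 6 also stood apart at the brightest probe set of Nr4a3, with 741 against 1838 to 2279 in the other old mice. The cause was not tested.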

How the results depend on the processing

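The directions of the 10 genes were kept under all alternatives for 8 of them, the exceptions being Egr3 and Ier3. With single mice left out, the log2 difference (old minus young) of Egr3 at 1421486_at ranged between -0.056 and 0.15, being below 0 without old mouse 2, old mouse 6 or young mouse 3. That of Ier3 ranged between -0.060 and 0.041, being above 0 without young mouse 4. That of the dim Nr4a3 probe set 1421080_at ranged between -0.12 and 0.22, being below 0 without old mouse 5 or young mouse 4.

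The count of 2 genes past the threshold was 0 to 1 with single mice left out, 0 by the ordinary test, 0 with mouse numbers 1 to 4 and 5 to 8 as a block, and 1 with array medians centered or with probe sets averaged by gene. Nr4a1 passed in 11 of 20 alternatives and Ier5 in 8 of 20. Of single probe sets, 0 passed in the main setting, 2 with a trended and robust prior, 2 with the brighter part of the probe sets only, 1 with a floor of 32, and 2 by the rule of more than 2-fold with a nominal p under 0.05. The count of genes at a nominal p under 0.05 was 4 to 6 of 10 with single mice left out, where 6.20% to 7.43% of all genes were so called, and Nr4a1, Nr4a2, Nr4a3 and Ier5 were in every one of those 8 counts. The median of the set was 0.53 to 0.64 with single mice left out. Taking Egr3 from its other probe set, an alternative added after the data were seen, left the count at 2 and gave a median of 0.67. The median of the 20 AP-1 and other factors was 0.18 with probe sets averaged by gene, in place of 0.31. The Egr3 probe set difference was 0.53 to 0.94 with single mice left out and never passed after adjustment. Both Egr3 probe sets fall out of the brighter part, and a floor left dim Nr4a3 probe sets without a value. No paired analysis was possible because the old and young mice share no numbers.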

Other observations

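The old mice did not stand in 1 order across immediate early genes. Fos, the AP-1 subunit gene, was picked for this after its values were seen, with signals of 3661, 4762, 1636 and 7999 in old mice 1, 2, 5 and 6, against 1526, 1542, 839.6 and 2038 in young mice 3, 4, 7 and 8. Its log2 difference was 1.46 (SE 0.49, adjusted p = 0.236 by limma over genes), with old mouse 5 inside the young range. Dusp1, Fos, Jun and Ccn1 ranked the old mice alike, from mouse 6 through mice 2 and 1 down to mouse 5. With the age means removed, Dusp1 correlated over the 8 mice with Fos at r = 0.97, with Ccn1 at 0.95 and with Jun at 0.87. Nr4a1 ranked the old mice as Atf3 did, in the order 6, 2, 5 and 1, at r = 0.77. Ier2 had the same order but correlated with Atf3 at only r = 0.23, so a shared order of 4 mice carries little. Nr4a3 ran the other way, at r = -0.60 with Fos, -0.66 with Ccn1 and -0.71 with Atf3. These values describe 8 points that share arrays, and the pairs were chosen after the values were seen.

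Genes whose signal followed the mean of the 10 genes most closely across the mice, with the age means removed, were sought among 9088 genes of the brighter range. They were Tapt1 (Pearson r = 0.97, Spearman rho = 0.90), Katnbl1 (0.94, 0.95), Tmem53 (0.94, 0.88), Tceal9 (0.93, 0.95) and Emc10 (0.93, 0.90). As the highest of 9088 values over 8 mice, they were picked for their size, and whether they exceed chance was not tested. None of the 5 passed an adjusted p under 0.05 for age in limma or stands on a list of immediate early genes used here, and Katnbl1 had the smallest nominal p of them, 0.00187, with a log2 difference of 0.37. Within the set, Ier2 followed the mean of the other 9 genes most closely at r = 0.75, then Egr1 at 0.69 and Nr4a1 at 0.46, whereas Nr4a3 was at -0.35.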
